A study of Mus musculus with 6 samples.

Results

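The genes described here are the aryl hydrocarbon receptor gene Ahr, its partner Arnt, its repressor Ahrr and 6 of their core targets, Cyp1a1, Cyp1a2, Cyp1b1, Tiparp, Nqo1 and Ephx1. They were chosen by name, with earlier results of these data known, as array rows whose platform annotation gives a single gene symbol. All 9 were measured, each by 1 row, among 19935 genes. Primary epidermal keratinocytes from wild-type CD1 mice were cultured at low calcium. In 3 cultures they carried a retrovirus with caNFATc1, a human NFATc1 whose autoinhibitory domain was mutated so that the factor is always active, and in 3 vector control cultures they carried the empty MSCV retrovirus. Every culture was therefore infected, and the labels give no dose of virus and no age or sex of the animals. The transgene was delivered by the viral vector to cells in culture, so its level was not set by the cells' own Nfatc1 gene. Values are log2 signals relative to the median of each row over the 6 arrays. They show differences between arrays but not how strongly a gene was expressed, and no level is compared between genes.

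The aryl hydrocarbon receptor is a ligand-activated transcription factor of the bHLH-PAS family. It waits in the cytosol with chaperones, moves to the nucleus when it binds ligands such as dioxins or tryptophan photoproducts, pairs with ARNT and binds DNA at the core GCGTG. Its best known targets are the CYP1 enzymes, which oxidise aromatic ligands, and 2 other targets, AHRR and TIPARP, act back on the receptor. In the epidermis the receptor is known for responses to light and pollutants and for its part in barrier formation. The comparison asks which of these transcripts differ when NFATc1 is active.

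A few facts of the whole series bear on these genes. Rcan1, an established NFAT target, was higher in caNFATc1 cells by 3.61, 3.12 and 3.40 in the same-numbered pairs, while the row of mouse Nfatc1, which may not detect the human transgene, differed by 0.04 ± 0.09 (SE, n = 3 per group). Across genes, same-numbered arrays of the 2 groups departed from their group means in like directions. Replicate 1 stood apart in both groups, with Xist at -6.00 and -6.05 there and between -0.04 and 0.18 elsewhere, and the Y-linked gene Eif2s3y at 3.00 and 3.77 against values between -0.08 and 0.01. Because of this structure, 2 fits of limma (a linear model with moderated errors, adjusted over all 19935 genes by Benjamini-Hochberg) are given: the unblocked fit, with group as its only term, and a fit that also takes the replicate number as a block. Both estimate the same difference, caNFATc1 minus vector control, with different errors. A gene is said to rise or fall only where its adjusted p was under 0.05, with the fit named. Whether equal numbers mean a shared culture is not stated in the labels, so calls made with the block rest on that pairing.

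The promoters of 4 members are shown first because the genes contrast in the results: Cyp1a1 and Ephx1 rose with the replicate block, while Cyp1a2, the direct neighbour of Cyp1a1 on chromosome 9, and Ahrr did not pass either fit. Each sequence is the 250 bases before the start site in RefSeq, build GRCm38.p6, on the gene's own strand. The arrays were made with another build, mm8. Capitals mark the receptor's core GCGTG, or CACGC where it reads on the other strand.
Cyp1a1 (chr9:57697363-57697612, + strand): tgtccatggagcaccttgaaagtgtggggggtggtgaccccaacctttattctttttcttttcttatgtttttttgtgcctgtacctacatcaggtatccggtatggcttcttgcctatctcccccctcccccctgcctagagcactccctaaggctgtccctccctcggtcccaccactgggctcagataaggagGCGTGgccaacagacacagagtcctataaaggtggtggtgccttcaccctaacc
Ephx1 (chr1:181017570-181017819, - strand): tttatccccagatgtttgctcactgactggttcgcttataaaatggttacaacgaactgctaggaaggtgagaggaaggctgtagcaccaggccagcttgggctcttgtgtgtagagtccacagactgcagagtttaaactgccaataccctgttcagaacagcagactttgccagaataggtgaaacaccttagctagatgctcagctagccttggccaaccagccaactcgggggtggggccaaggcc
Cyp1a2 (chr9:57683656-57683905, - strand): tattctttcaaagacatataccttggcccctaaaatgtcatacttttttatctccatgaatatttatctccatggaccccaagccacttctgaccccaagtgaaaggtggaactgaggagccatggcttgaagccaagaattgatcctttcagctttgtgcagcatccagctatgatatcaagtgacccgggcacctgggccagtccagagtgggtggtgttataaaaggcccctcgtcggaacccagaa
Ahrr (chr13:74292332-74292581, - strand): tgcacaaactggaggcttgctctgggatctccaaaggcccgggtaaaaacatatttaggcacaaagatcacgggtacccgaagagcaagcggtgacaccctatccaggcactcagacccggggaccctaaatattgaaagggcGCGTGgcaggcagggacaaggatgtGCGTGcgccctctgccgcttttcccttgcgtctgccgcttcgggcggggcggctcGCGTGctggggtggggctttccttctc

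Windows of 250 bases before to 50 bases after the start site were given for 8 of the 9 members, all but Ahr. Searched on both strands, GCGTG was found in 5 of these 8, namely Arnt, Ahrr, Cyp1a1, Cyp1b1 and Tiparp, against 32.4% of all 32851 promoter windows of that length. The Cyp1a1 window held 1 match, 54 to 50 bases before the start, and the Ahrr window held 3. The longer form TNGCGTG, which contains GCGTG, was found only in the Ahrr window among the 8, and in 5.07% of all windows. The windows of Ephx1, Cyp1a2 and Nqo1 held neither form. TGACNNNGC, the shared letters of the antioxidant response element bound by NRF2, occurred among the 8 in the Arnt window alone (12.4% of all windows). GGAAA, the core of NFAT sites, occurred in the windows of Arnt, Ahrr and Cyp1b1, and in 61.3% of all windows. A match is a run of letters and does not show binding, and these short windows leave out the upstream enhancer through which Cyp1a1 is known to respond to the receptor.

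The receptor itself and its partner were slightly higher in caNFATc1 cells in every pair, but neither passed. Ahr values were -0.27, 0.10 and -0.10 in vector replicates 1, 2 and 3, and -0.12, 0.25 and 0.30 in caNFATc1 replicates 1, 2 and 3. The groups overlapped, since caNFATc1 replicate 1 lay below vector replicate 3. Within pairs Ahr was higher by 0.14, 0.15 and 0.40, a mean of 0.23 ± 0.15 (SE, n = 3 per group, adjusted p = 0.605), and with the block 0.23 ± 0.08 (adjusted p = 0.168). Arnt, the partner the receptor needs to bind DNA, had vector values of -0.22, 0.06 and -0.06 and caNFATc1 values of -0.07, 0.19 and 0.16. Its pair differences were 0.16, 0.13 and 0.22, with a mean of 0.17 ± 0.11 (adjusted p = 0.596, and 0.201 with the block). For both genes replicate 1 was the lowest array of each group. With the block, the 95% intervals of the differences were 0.03 to 0.43 for Ahr and 0.01 to 0.33 for Arnt.

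Ahrr, a relative of the receptor that competes for ARNT and represses its targets, did not follow them. On the vector arrays it was at 0.16, -0.05 and -0.03 and on the caNFATc1 arrays at -0.02, 0.03 and 0.02. Vector replicate 1 was the highest array and the other 5 lay within -0.05 to 0.03. The difference was -0.02 ± 0.07 (adjusted p = 0.964, and 0.950 with the block), and its sign turned under quantile normalization, to 0.01. The 95% interval with the block was -0.21 to 0.18. The pair differences of Ahr exceeded those of Ahrr by 0.32, 0.07 and 0.35, a mean of 0.25 ± 0.15 (SD, n = 3 pairs, exact sign-flip test, two-sided p = 0.25, the smallest that 3 pairs allow).

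Cyp1a1, the enzyme most used as a readout of receptor activity, was the member with the largest difference, 1.73-fold higher in caNFATc1 cells. Vector replicates 1, 2 and 3 gave -0.39, -0.22 and -0.42, and the caNFATc1 replicates gave 0.73, 0.22 and 0.39. All 3 caNFATc1 arrays lay above all 3 vector arrays, and the vector arrays lay close together. Within pairs it was higher by 1.12, 0.45 and 0.81. The mean log2 difference was 0.79 ± 0.14 (SE, n = 3 per group, limma adjusted p = 0.0973), so Cyp1a1 did not pass the unblocked fit, and it rose with the block (0.79 ± 0.13, adjusted p = 0.0313). The block's 95% interval corresponds to 1.38-fold to 2.17-fold. The call with the block was lost without replicate 1 of both groups (0.63 ± 0.11, adjusted p = 0.0567), and after quantile normalization Cyp1a1 passed without the block (0.74 ± 0.10, adjusted p = 0.0465).

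Cyp1a2, a CYP1 enzyme mainly known from liver that lies next to Cyp1a1 with no annotated gene between them, had the same mean in both groups to the second decimal. Its vector values were 0.10, -0.07 and 0.01 and its caNFATc1 values 0.10, -0.01 and -0.04, so the groups overlapped fully. The difference was 0.00 ± 0.07 (adjusted p = 0.998, and 0.997 with the block), with an interval with the block of 0.895-fold to 1.12-fold. Whether the Cyp1a2 row was above background on these arrays cannot be read from row-centred values. The pair differences of Cyp1a1 exceeded those of Cyp1a2 by 1.12, 0.39 and 0.86 (mean 0.79 ± 0.37, SD, n = 3 pairs, exact sign-flip p = 0.25).

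Cyp1b1, the CYP1 enzyme known for its expression outside the liver, differed more between replicates than between groups. Its vector values were -1.14, 0.09 and 0.06 and its caNFATc1 values -0.76, 0.16 and -0.06. Replicate 1 was far below the others in both groups, and the groups overlapped. The difference was 0.11 ± 0.40 (adjusted p = 0.952) and with the block 0.11 ± 0.10 (adjusted p = 0.646), with pair differences of 0.38, 0.07 and -0.11. Without replicate 1 of both groups it was -0.02. The pair differences of Cyp1a1 exceeded those of Cyp1b1 by 0.74, 0.37 and 0.92 (mean 0.68 ± 0.28, SD, n = 3 pairs, exact sign-flip p = 0.25). This and the comparisons of Cyp1a1 with Cyp1a2, of Ahr with Ahrr and of Ephx1 with Nqo1 were the 4 made between members. Each adjusted sign-flip p is 0.25. Since 3 pairs allow no lower p in this test, none of the 4 could pass.

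**Figure D1:**
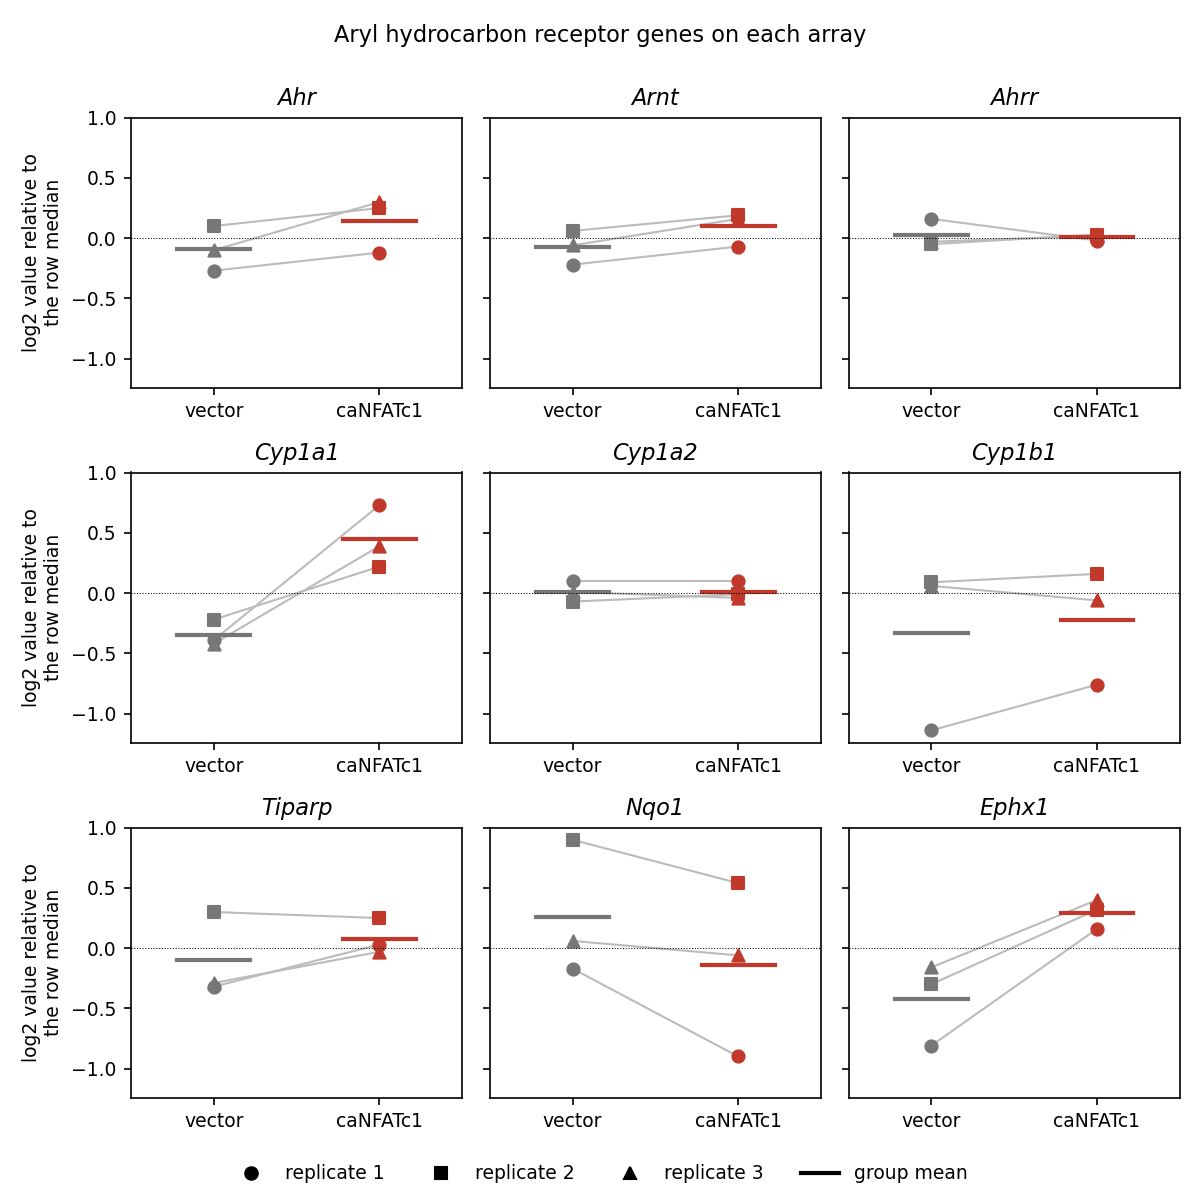
Log2 value relative to the row median (vertical axis) of each member on the 3 vector arrays (grey) and the 3 caNFATc1 arrays (red), with symbols for the replicate number, grey lines joining same-numbered arrays and bars at the group means. Cyp1a1 and Ephx1 separate the groups, while for Cyp1b1 the replicate 1 arrays sit at -1.14 and -0.76, below all others.

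Tiparp encodes a mono-ADP-ribosyltransferase that is induced by the receptor and represses it. Its vector values were -0.32, 0.30 and -0.29 and its caNFATc1 values 0.03, 0.25 and -0.03. Vector replicate 2 was the highest of all 6 arrays, so the groups overlapped. The pair differences were 0.35, -0.04 and 0.25, with a mean of 0.19 ± 0.18 (adjusted p = 0.766, and 0.334 with the block). Leaving out 1 array moved the mean to between 0.08 (without vector replicate 1) and 0.39 (without vector replicate 2).

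Ephx1, the microsomal epoxide hydrolase that opens the epoxides CYP enzymes make, was 1.64-fold higher in caNFATc1 cells. Values of -0.81, -0.30 and -0.16 in vector cells stood against 0.16, 0.32 and 0.40 in caNFATc1 cells. All caNFATc1 arrays lay above all vector arrays, and within pairs Ephx1 was higher by 0.97, 0.61 and 0.56. The log2 difference was 0.71 ± 0.18 (SE, n = 3 per group, adjusted p = 0.188), and Ephx1 rose with the block (0.71 ± 0.10, adjusted p = 0.0204, an interval of 1.39-fold to 1.94-fold). The call with the block held without replicate 1, 2 or 3 of both groups, with differences of 0.59, 0.76 and 0.79 and adjusted p of 0.0275, 0.0375 and 0.0104.

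Nqo1, a quinone reductase driven by both the receptor and NRF2, lay on the other side. Its vector values were -0.17, 0.90 and 0.06 and its caNFATc1 values -0.90, 0.54 and -0.06. Replicate 2 was the highest and replicate 1 the lowest array of each group, and the groups overlapped. Nqo1 was lower in caNFATc1 cells in every pair, with differences of -0.74, -0.36 and -0.13. The mean was -0.41 ± 0.43 (adjusted p = 0.791) and with the block -0.41 ± 0.12 (adjusted p = 0.123), so it passed neither fit. The size of the mean rested on single arrays, being -0.03 without caNFATc1 replicate 1, -0.09 without vector replicate 2 and -0.75 without caNFATc1 replicate 2 in the unblocked fit. Without replicate 3 of both groups it passed with the block (-0.55 ± 0.12, adjusted p = 0.0470). The pair differences of Ephx1 exceeded those of Nqo1 by 1.70, 0.97 and 0.68 (mean 1.12 ± 0.53, SD, n = 3 pairs, exact sign-flip p = 0.25).

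Counted together, limma called 0 of the 9 members without the block, where 0.216% of all genes were called, and 2 had an unadjusted p under 0.05 (12.7% of all genes). With the block 2 of the 9 rose, against 3.73% of all genes, and 0 fell, against 2.38% of all genes. With the block 5 members, Ahr, Arnt, Cyp1a1, Nqo1 and Ephx1, had an unadjusted p under 0.05 (21.5% of all genes). Ahr, Arnt, Cyp1a1 and Ephx1 were higher in all 3 pairs (21.6% of all genes) and Nqo1 was lower in all 3 (21.3% of all genes). Cyp1a1 and Ephx1 had no overlap between groups in the upward direction (9.64% of all genes), and none of the 9 in the downward direction (9.09% of all genes). The median difference of the 9 was 0.17, against -0.01 over all genes, with 7 positive and 2 negative. In pairs 1, 2 and 3 the members' median was 0.16, 0.08 and 0.22.

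**Figure D2:**
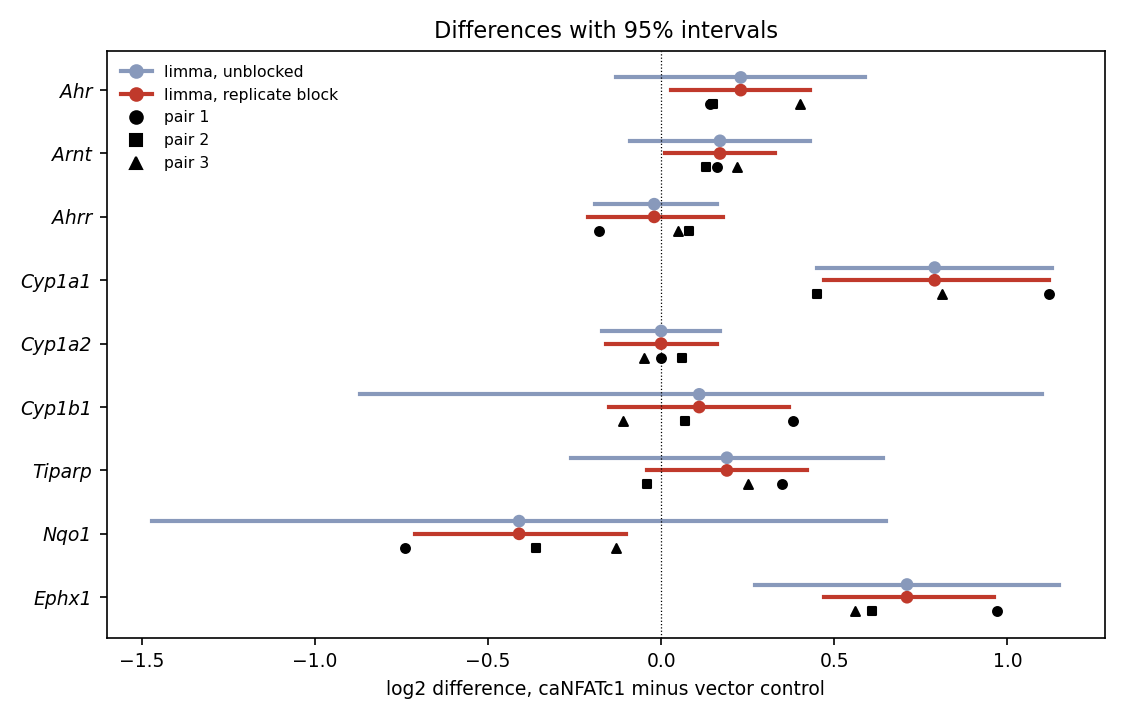
Log2 difference, caNFATc1 minus vector control (horizontal axis), for each member with its 95% interval from the unblocked fit (blue) and the fit with the replicate block (red), and the 3 pair differences (black symbols). The intervals of Cyp1a1 and Ephx1 lie above 0 in both fits, those of Ahr, Arnt and Nqo1 exclude 0 with the block alone, and that of Cyp1a2 is centred on 0.00.

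The members differed in where their variation lay. The sum of squares over the 6 arrays was divided into shares for group, replicate number and the rest. The group took 85.7% for Cyp1a1 and 73.8% for Ephx1, against a median of 18.6% over all genes. For Cyp1b1, Cyp1a2, Nqo1 and Tiparp the replicate number took 94.5%, 87.3%, 82.2% and 72.0%, against a median of 42.0% over all genes. Ahr and Arnt lay between, with 60.0% and 63.4% for the replicate number and 31.5% and 34.9% for the group. Ahrr was the member whose variation followed neither, with 74.6% in the rest. The shares describe proportions only, and the whole spread of Cyp1a2 was small, from -0.07 to 0.10.

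**Figure D3:**
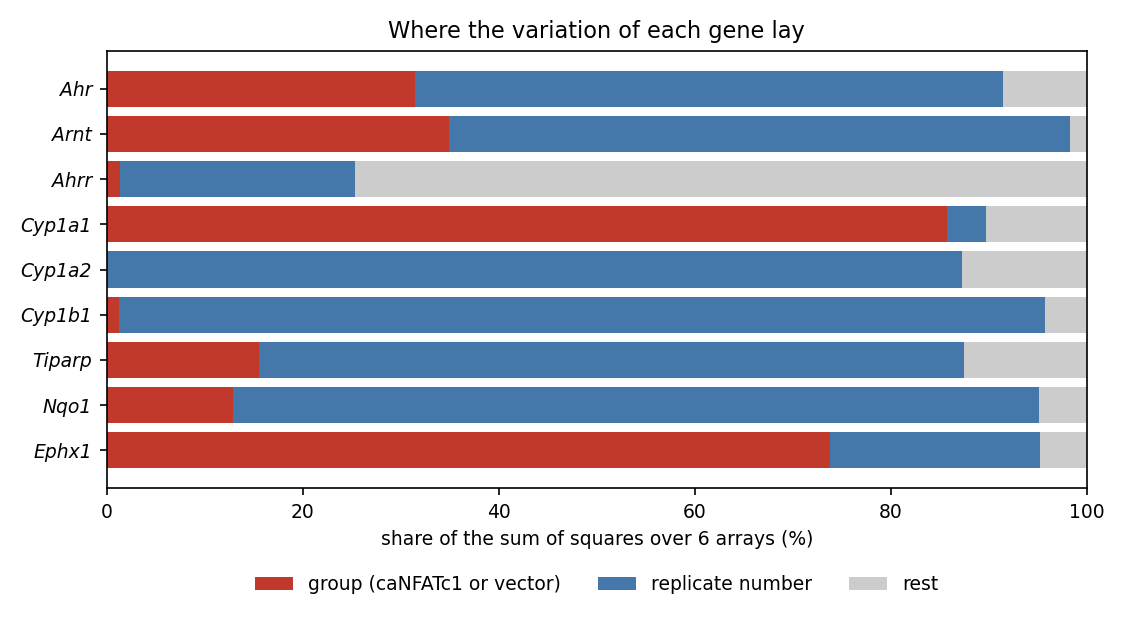
Share of each member's sum of squares over the 6 arrays (horizontal axis, percent) that lay between groups (red), between replicate numbers (blue) and in the rest (grey). The red share leads for Cyp1a1 and Ephx1 and the blue share for Cyp1b1 (94.5%), with Ahrr mostly grey.

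The mean of the replicate 1 arrays differed from that of replicates 2 and 3 by -1.01 for Cyp1b1 and -0.90 for Nqo1, and 0.958% and 1.28% of all genes were at least as low in replicate 1. Vim, which fibroblasts express strongly, was -2.98 and -2.92 in replicate 1 and between -0.03 and 0.79 elsewhere. Its replicate 1 mean differed from that of replicates 2 and 3 by -3.22. For the other fibroblast markers this difference was far smaller, between -0.35 (Col1a1 and Pdgfra) and 0.16 (Thy1). Whether other cells contributed to the replicate pattern of Cyp1b1 was not tested. Of the 9 fibroblast markers fixed for the check, 7 had a positive group difference, where 9452 of all 19935 genes were positive. With the block Col3a1 rose by 1.20 ± 0.19 (adjusted p = 0.0296, against 0.108 without), where 3.73% of all genes rose. The summed relative value of the 9 ran from -3.04 to -0.52 on the vector arrays and from -2.17 to 5.83 on the caNFATc1 arrays. The highest sum was that of caNFATc1 replicate 3. In pairs 1, 2 and 3 the median difference of the 9 was 0.03, 0.06 and 0.50. By limma, 2 of the 9 had an unadjusted p under 0.05 in each fit, Col3a1 and Pdgfra. Over all genes the shares were 12.7% without the block and 21.5% with it. Pdgfra, a growth factor receptor of fibroblasts, was higher in all 3 pairs (21.6% of all genes) with no overlap between groups (9.64% of all genes). It differed by 0.83 ± 0.27 (adjusted p = 0.284, and 0.0778 with the block). Of the other fibroblast markers, the collagen genes Col1a1 and Col1a2 differed by 0.48 and 0.05, Pdgfrb by 0.26, Vim by 0.21, Dcn by 0.08, Lum by -0.01 and Thy1 by -0.14, and none of these passed. The part of these markers in the differences of Cyp1a1 and Ephx1 was not tested, and fewer cells of a type and less RNA per cell cannot be told apart in these bulk cultures. For melanocytes, immune cells and endothelial cells limma called 0 of 8, 0 of 7 and 0 of 6 measured markers with or without the block. Of all genes 6.11% were called with the block and 0.216% without. Of these markers 0 had an unadjusted p under 0.05. Summed over each list these markers ran from -0.31 to 1.06, -0.17 to 0.59 and -0.43 to 0.10 on the vector arrays, and from -0.24 to 0.18, -0.37 to 0.05 and -1.64 to 0.47 on the caNFATc1 arrays. Of 8 keratinocyte markers, 4 were positive and 4 negative, with a median of 0.01. Trp63, the master regulator of stratified epithelium, rose with the block (0.42 ± 0.08, adjusted p = 0.0444, against 0.322 without), where 3.73% of all genes rose. The keratin genes Krt5 and Krt14 differed by 0.03 and -0.02, Itga6 by 0.06, Itgb4 by -0.05, Perp by -0.01 and Cdh1 by -0.05, and none of these passed. Dsp, which encodes desmoplakin of the desmosomes, differed by 0.32 without passing. It was at -2.78 and -2.58 in replicate 3 of the 2 groups and between -0.11 and 0.99 elsewhere, so replicate 3 also stood apart on this marker. The 8 keratinocyte markers summed to between -3.22 and 0.23 on the vector arrays and between -2.84 and 1.20 on the caNFATc1 arrays. Row-centred values do not show whether any marker was expressed, so the labelled cell type could not be checked by level.

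Across the 6 arrays Ahr and Arnt followed each other (Pearson r = 0.98), and the 4 genes most like Ahr were Galnt1 (0.988), Hoxb2 (0.987), Plpp3 (0.986) and Micalcl (0.986). Those most like Cyp1b1 were Crisp2 (0.997), Agtrap (0.997), Prdm2 (0.997) and Gdap10 (0.996). The arrays share groups and replicate numbers, and all 8 of these genes were lower in replicate 1 than in replicates 2 and 3, with differences between -1.68 and -0.06. With 6 arrays and 19935 genes such values are a description of the arrays. Cyp1a1 and Ephx1 had a coefficient of 0.76 with each other, and that of Cyp1a1 was 0.38 with Ahr and -0.05 with Cyp1b1.

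Transcripts of the proteins that hold the receptor in the cytosol or work with it in the nucleus differed by between -0.22 and 0.33. Of 15 chaperones and coregulators listed, 13 were measured, 8 were positive and the median difference was 0.10. Limma called 0 without the block (0.216% of all genes) and 0 with it (6.11% of all genes). At an unadjusted p under 0.05 there were 1 without the block and 2 with it (12.7% and 21.5% of all genes). Ptges3, which encodes the HSP90 cochaperone p23, had differences of -0.21, -0.23 and -0.22 in the pairs, with no overlap between groups (9.09% of all genes in this direction). Its mean difference was -0.22 ± 0.06 (adjusted p = 0.209, and 0.108 with the block). The coactivator gene Ncoa3 differed by 0.33 ± 0.15 (adjusted p = 0.448, and 0.0631 with the block). The kinase gene Src, whose product is found in the cytosolic complex, and the coregulator gene Nrip1 differed by 0.22 and 0.15 without passing.

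Among relatives of the bHLH-PAS family, 15 of 16 were measured, 9 were positive and the median was 0.00. With the block 1 rose and 0 fell (3.73% and 2.38% of all genes), and limma called 0 without it (0.216% of all genes). At an unadjusted p under 0.05 there were 1 without the block and 2 with it (12.7% and 21.5% of all genes). The gene that rose was Per2, a PAS protein of the circadian clock that represses rather than binds DNA. Its vector values were -0.26, -0.06 and -0.61 and its caNFATc1 values 0.84, 0.42 and 0.06, with no overlap (9.64% of all genes in this direction). The difference was 0.75 ± 0.23 (adjusted p = 0.264), and with the block 0.75 ± 0.13 (adjusted p = 0.0329). The call with the block held without any of the 3 pairs (adjusted p = 0.0386, 0.0272 and 0.0265). Epas1, which encodes the hypoxia factor HIF-2 alpha and also pairs with ARNT, was higher by 0.32, 0.56 and 0.25 in the pairs (0.38 ± 0.32, adjusted p = 0.720, and 0.0607 with the block). Per1 and Npas4 differed by 0.16 and 0.11 and did not pass.

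Further genes reported as responsive to the receptor in other cells had differences of both signs. Of 21 listed, 14 were measured, 5 were positive and 9 negative, and the median was -0.20. The 7 not measured were Ugt1a6a, Ugt1a6b, Ugt1a7c, Gsta1, Gsta2, Areg and Nedd9, so the median does not cover them. With the block 1 rose and 2 fell (3.73% and 2.38% of all genes), and without it limma called 0 (0.216% of all genes). At an unadjusted p under 0.05 there were 0 without the block and 8 with it (12.7% and 21.5% of all genes). Xdh, xanthine dehydrogenase, had vector values of -0.17, 0.97 and 0.99 and caNFATc1 values of -1.66, 0.17 and -0.47. It was lower in each pair, with differences of -1.49, -0.80 and -1.46, although the groups overlapped through vector replicate 1. With the block it fell by 1.25 ± 0.15 (adjusted p = 0.0152, against 0.420 without), a call that held without pair 1, 2 or 3. The other genes called with the block were named after their values were seen: the efflux transporter gene Abcg2 rose (0.70 ± 0.11, adjusted p = 0.0284) and Cyp2s1, a P450 gene of epithelia, fell (-0.73 ± 0.14, adjusted p = 0.0473). Without the block their adjusted p were 0.677 and 0.719. The Abcg2 call held without pair 1, 2 or 3, and that of Cyp2s1 was lost without pair 2 or 3 (adjusted p = 0.129 and 0.07). Nfe2l2, which encodes NRF2, and Selenbp1 and Il1b differed by 0.18, -0.29 and -0.12 and did not pass.

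Nqo1 and Ephx1 are also known as targets of NRF2, the factor of the antioxidant response. The list of its other targets, with its own gene Nfe2l2 and its inhibitor gene Keap1, was mixed. Nfe2l2 (0.18) and Keap1 (0.09) count among its positive genes, and Nfe2l2 is also in the list of further responsive genes. Of 24 listed genes 23 were measured, 9 were positive and 14 negative, with a median of -0.05. With the block 1 rose and 2 fell (3.73% and 2.38% of all genes), and without it limma called 0 (0.216% of all genes). At an unadjusted p under 0.05 there were 2 without the block and 7 with it (12.7% and 21.5% of all genes). Slc7a11, the cystine transporter that supplies glutathione synthesis, had vector values of 0.15, 0.67 and 0.05 and caNFATc1 values of -0.71, -0.05 and -1.11, with no overlap (9.09% of all genes in this direction). It fell with the block by 0.91 ± 0.10 (adjusted p = 0.0118, against 0.289 without), also without pair 1, 2 or 3 (adjusted p = 0.0322, 0.0124 and 0.00609). Gclc, the catalytic subunit of the first enzyme of glutathione synthesis, was also lower with no overlap (-0.41 ± 0.09, adjusted p = 0.158, and 0.0682 with the block). Gstm1, a glutathione transferase, rose with the block (0.60 ± 0.10, adjusted p = 0.0338, against 0.463 without). Osgin1, named after its value was seen, fell with the block (-0.36 ± 0.07, adjusted p = 0.0493, against 0.590 without). The Gstm1 call was lost without pair 1 or 2 (adjusted p = 0.0604 and 0.0837) and that of Osgin1 without pair 1, 2 or 3 (adjusted p = 0.111, 0.0873 and 0.16).

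**Figure D4:**
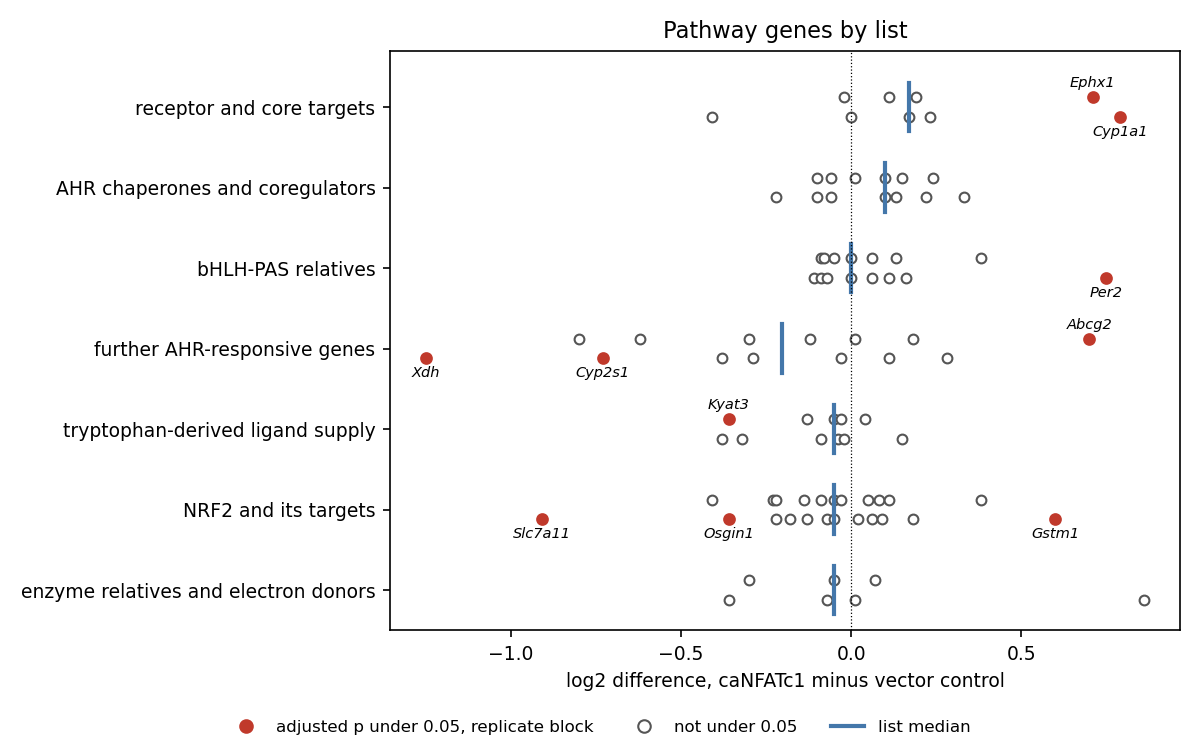
Log2 difference, caNFATc1 minus vector control (horizontal axis), of each measured gene of 7 lists (rows), with genes called by the fit with the replicate block in red and named, others as open circles, and list medians as blue bars. The receptor and core targets have a median of 0.17, and the list of further responsive genes has a median of -0.20, with called genes on both sides of 0.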

How the data were processed

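Total RNA of 6 keratinocyte cultures was measured on 6 single-colour arrays. The table the authors deposited holds 28815 rows of log2 values. Per the submitters' processing notes, RMA and mm8 were used, while software, version and row filters are not stated. Base 2 was taken from RMA. Row medians were 0 within 5e-07, so brightness is not kept, dim rows could not be left out, and the number of arrays limits the precision. The platform annotation gave 1 symbol for 21780 rows, several for 1605 and none for 5430, and 21689 Entrez numbers matched RefSeq (GRCm38.p6). Rows were averaged per gene.

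Groups came from the sample titles and were compared with limma 3.58.1 (R 4.3.3; lmFit, eBayes, two-sided), adjusted over all genes, with 95% intervals from the moderated error. The fit was tested on simulated data. The series calls the replicates biological without naming their source, so p-values reflect only the spread of these samples, which may be technical in part. Xist and Eif2s3y, genes of the sex chromosomes, set replicate 1 apart in both groups. Deviations of same-numbered arrays correlated at 0.57 to 0.71 and other pairings at -0.60 to 0.18. Every same-numbered correlation exceeded the limit of 0.1, so arrays were treated as paired by number. Members and lists were chosen with earlier results of these data known. The 6 pathway lists hold 96 genes, 82 of them measured. All members, the 4 genes of each list with the lowest p in the unblocked fit and the 4 genes most like Ahr and Cyp1b1 were named.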

Additional observations from a re-analysis of the deposited data

How the results depend on the processing

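Over 22 alternatives, 6 of them added after the data were seen, Ahr, Arnt, Cyp1a1, Tiparp, Nqo1 and Ephx1 kept the sign of their difference. Many of these settings could not change it. Each member had 1 row, so the choice of row left its values as they were. The block and robust errors alter only the error of a difference. The sizes of the differences moved, over the settings without a single array, from 0.14 to 0.36 for Ahr, 0.10 to 0.25 for Arnt, 0.65 to 0.90 for Cyp1a1, 0.08 to 0.39 for Tiparp, -0.75 to -0.03 for Nqo1 and 0.52 to 0.85 for Ephx1. Cyp1a1 and Ephx1 passed under 7 alternatives each and Nqo1 under 1. Ahrr changed sign with quantile normalization (0.01, also with the replicate block) and without pair 1 (0.07, also with the block), and ran from -0.05 to 0.05 without single arrays. Cyp1a2 ran from -0.04 to 0.04 without single arrays and was -0.03 without pair 2, and Cyp1b1 ran from -0.29 to 0.38 and was -0.02 without pair 1, the same with the block. Members called higher numbered 0 in the unblocked fit, 1 with quantile normalization, 2 with the replicate block, 2 with the block and quantile normalization, median centring or robust errors, and 1 to 2 with the block and a pair left out, where 0 to 1 were lower. Of all genes, 41 were higher and 2 lower without the block, 744 and 475 with it, and 149 and 20 with quantile normalization. With the block they were 657 and 373 with quantile normalization, 723 and 434 with median centring, 722 and 456 with robust errors, and 509, 513 and 605 against 202, 230 and 481 without pair 1, 2 or 3. Unblocked, leaving out arrays or pairs gave 0 to 74 higher and 0 to 9 lower, with 1580 to 2838 genes at an unadjusted p under 0.05 by limma. Each list had 0 calls without the block. With it the relatives of the bHLH-PAS family had 1 higher, further responsive genes 1 higher and 2 lower, tryptophan genes 1 lower and NRF2 genes 1 higher and 2 lower. With the block and a pair left out the first 2 lists kept these counts, tryptophan genes had 0 lower, NRF2 genes had 0 to 1 higher and 1 lower, and the enzyme relatives 0 to 1 in each direction. The lower further responsive genes were not the same ones each time. Cyp2s1 was lost without pair 2 or 3. Serpinb2 passed instead without pair 2 (-1.04 ± 0.16, limma adjusted p = 0.03) and Il24 without pair 3 (-0.80 ± 0.17, adjusted p = 0.0333). Unblocked and without caNFATc1 replicate 2, the enzyme relatives had 1 higher. The cause of these changes was not tested. Filters on dim rows could not be run, since brightness is not kept.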

Other observations

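Genes that make or remove tryptophan-derived ligands of the receptor had differences between -0.38 and 0.15. Of 12 listed, 11 were measured, 9 were negative and 2 positive, with a median of -0.05, where 10483 of all 19935 genes were negative and the median was -0.01. With the replicate block 1 fell and 0 rose (2.38% and 3.73% of all genes), and without it limma called 0 (0.216% of all genes). At an unadjusted p under 0.05 there were 1 without the block and 2 with it (12.7% and 21.5% of all genes). Kyat3, a kynurenine aminotransferase, had vector values of 0.31, 0.06 and 0.32 and caNFATc1 values of -0.06, -0.26 and -0.06, with no overlap (9.09% of all genes in this direction). Its pair differences were -0.38, -0.32 and -0.38, and it fell with the block by 0.36 ± 0.06 (adjusted p = 0.0363, against 0.227 without), a call lost without pair 1, 2 or 3 (adjusted p = 0.0755, 0.12 and 0.118). Its relative Kyat1, the aminotransferase gene Aadat and the kynureninase gene Kynu differed by -0.32, -0.38 and -0.13 and did not pass.

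Relatives of the target enzymes, with the proteins that pass electrons to P450s, gave 0 limma calls without the block (0.216% of all genes) and 0 with it (6.11% of all genes). At an unadjusted p under 0.05 there were 2 without the block and 3 with it (12.7% and 21.5% of all genes). Of 9 listed, 7 were measured, with a median of -0.05. The sulfotransferase gene Sult1a1 had vector values of -0.04, -0.22 and -0.08 and caNFATc1 values of 0.95, 0.04 and 1.25, with no overlap (9.64% of all genes in this direction). Its difference was 0.86 ± 0.30 (adjusted p = 0.320, and 0.0651 with the block). Sult1a1 passed with the block without pair 2 (1.16 ± 0.12, adjusted p = 0.00876). The electron carrier gene Cyb5a was lower with no overlap (9.09% of all genes in this direction). The gene differed by -0.30 ± 0.12 (adjusted p = 0.380, and 0.168 with the block). It passed with the block without pair 1 (-0.44 ± 0.07, adjusted p = 0.0460). The epoxide hydrolase genes Ephx2 and Ephx3 differed by -0.36 and -0.07 without passing, while Ephx1 rose with the block. The difference between Ephx1 and these relatives was not tested.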
